A study of Homo sapiens with 8 samples.

Results

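The 42 G2/M and mitosis genes are a named set of protein-coding genes that act from the end of G2 to cell division, and each was taken from the deposited table by its gene name. All 42 were found among the 45961 gene rows of the table, and all 42 passed the filter on low values (a mean of at least 1 FPKM) that left 12449 genes for testing. FPKM counts fragments per kilobase of transcript, scaled by the fragments mapped in the library, so levels of different genes can be set beside each other per length. The genes were measured in 8 polyA RNA libraries of H9, an established human embryonic stem cell line, and the labels name no engineered allele. The groups are D1-Co, D2-Co and D3-Co, human cells from co-culture at day 1, 2 and 3, and D3-Control, human cells from separate culture at day 3, with 2 libraries each and the days read from the library titles. The series concerns competition between cells of distant species in chimeras. The co-culture partner of each library is not given in the labels used here. Per the labels' protocols the primed human cells grew on Matrigel in mTeSR1, or on growth-arrested mouse embryonic fibroblasts with FGF2 and IWR1, an inhibitor of WNT signalling, and the labels do not tie either condition to a library. All libraries come from 1 cell line. Nothing says that the 2 libraries of a group came from separate cultures, so the p-values measure the spread between these libraries, which may be technical.

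A cell enters mitosis when CDK1, bound to a B-type cyclin, is freed of its inhibitory phosphates by CDC25 phosphatases and backed by the kinases PLK1 and AURKA. Kinetochores then attach the chromosomes to spindle microtubules, and the spindle checkpoint proteins hold back CDC20 and the anaphase promoting complex until every chromosome is attached. That complex, with its ubiquitin-conjugating enzyme UBE2C, marks securin and the cyclins for destruction, the chromatids part, and the central spindle and a contractile ring divide the cell. Many of these genes are transcribed late in the cycle. The factors B-MYB and FOXM1 then join the MuvB complex at a promoter element named the cell cycle genes homology region. NF-Y binds CCAAT boxes nearby. Of that element, only the forms TTTGAA and TTCGAA were searched here. Human embryonic stem cells cycle fast, with a short G1. In bulk RNA, fewer cells in G2 or M and less of these mRNAs per cell cannot be told apart.

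Promoters are shown because the members share letters there that the choice of genes did not use. RefSeq (GRCh38.p14) windows from 250 bases before to 50 after the start were held for 35 of the 42 genes. FOXM1, UBE2C, BUB3, AURKA, TTK, BIRC5 and TPX2 had no window. The letters TTTGAA or TTCGAA, read on both strands, stood in 26 of the 35 windows (74.29%), against 13.48% of 15843 windows of all protein-coding genes and 16.62% of 27305 windows of all genes. CCAAT, also on both strands, stood in 27 (77.14%), against 36.36% of protein-coding windows. At least 1 of the first and at least 2 of the second stood together in 15 (42.86%), against 1.85%. A match of letters is a description and not a bound site. Other forms of the element were not searched, so a window without these letters may still hold it.

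The 120 bases before the start of 7 members follow, 5′ to 3′ on the gene's strand, with these letters on either strand in capitals, so that ATTGG stands for a CCAAT box and TTCAAA for a TTTGAA on the other strand. The first 6 are genes that were higher in D3-Co than in D1-Co, and CCNB1, which was not, has CCAAT boxes and no TTTGAA or TTCGAA in its window. The printed genes do not stand for all members. PLK1 and CDC20 hold TTTGAA or TTCGAA and were not called higher, and CENPE and PTTG1 hold neither and were. Where 2 matches touch or overlap, as in HMMR, the capitals run on. The positions are chr5:163460512-163460631 (plus strand) for HMMR, chr14:55191586-55191705 (minus) for DLGAP5, chr11:62123891-62124010 (plus) for INCENP, chr3:172750606-172750725 (plus) for ECT2, chr15:40160949-40161068 (plus) for BUB1B, chr15:59105026-59105145 (plus) for CCNB2 and chr5:69167030-69167149 (plus) for CCNB1.
HMMR: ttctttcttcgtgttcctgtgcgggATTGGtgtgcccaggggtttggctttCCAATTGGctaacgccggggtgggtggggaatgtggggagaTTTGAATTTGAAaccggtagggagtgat
DLGAP5: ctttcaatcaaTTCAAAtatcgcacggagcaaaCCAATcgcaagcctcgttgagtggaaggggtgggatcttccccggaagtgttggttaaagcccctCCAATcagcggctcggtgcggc
INCENP: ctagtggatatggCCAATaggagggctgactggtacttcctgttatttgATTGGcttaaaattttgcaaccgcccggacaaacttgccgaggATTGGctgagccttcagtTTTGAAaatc
ECT2: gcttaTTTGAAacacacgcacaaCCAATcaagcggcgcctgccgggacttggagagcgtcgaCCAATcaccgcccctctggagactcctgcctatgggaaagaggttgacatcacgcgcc
BUB1B: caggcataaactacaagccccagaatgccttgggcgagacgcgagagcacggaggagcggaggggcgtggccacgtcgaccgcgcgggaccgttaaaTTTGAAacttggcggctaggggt
CCNB2: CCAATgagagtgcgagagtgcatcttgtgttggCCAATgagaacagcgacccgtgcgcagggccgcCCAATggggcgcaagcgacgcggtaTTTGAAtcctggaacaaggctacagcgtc
CCNB1: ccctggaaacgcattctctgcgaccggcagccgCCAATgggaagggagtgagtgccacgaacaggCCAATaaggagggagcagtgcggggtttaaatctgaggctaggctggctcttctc

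In the table as deposited many values stand on the row of another gene, and rows were put back before use. Of the 42 members, 17 stood on their own row in all libraries, 25 had a value moved in at least 1 library, and 3 of these (CCNA2, CDK1 and KIF23) took another value under small changes of the search. Because the search draws each library towards D1-Co replicate 2, differences on moved rows can be understated. The spread between the libraries of a group can be understated there too, and SEs and p-values on moved rows can then be too small. In the order as deposited, called differences of ASPM, BUB3, CCNA2, CCNB1, CENPA, CENPE, HMMR, MAD2L1, PTTG1 and TPX2 had the opposite sign in at least 1 comparison, so these calls rest on the realignment. Those of FOXM1, CCNB2 and KIF23, also on moved rows, kept their sign there but were not called in any comparison. The same held for BUB1B in D2-Co against D1-Co and in D3-Co against D2-Co. The read depth of the libraries is unknown, since the table gives no counts. The pluripotency markers lay between 5.83 (ZFP42) and 811 FPKM (POU5F1) in all libraries, so the labelled cell type carried its markers. They were not level over the groups. The lowest marker stood at 10.97 and 12.4 FPKM in D1-Co, 6.01 and 5.83 in D2-Co, 30.2 and 30.8 in D3-Co, and 36.5 and 34.7 FPKM in D3-Control.

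The 42 genes ranged from 4.61 FPKM (CENPE in D2-Co replicate 1) to 186 FPKM (CDC20 in D3-Control replicate 2). Their summed level was 1801 and 1844 FPKM in D1-Co, 1822 and 1824 in D2-Co, 2004 and 2000 in D3-Co, and 1984 and 2011 FPKM in D3-Control. The sums of D3-Co and D3-Control overlapped, and those of D1-Co and D2-Co were lower than both. 24 members had their highest group mean in D3-Co and 13 in D3-Control, and 22 had their lowest in D1-Co and 12 in D2-Co. The differences were small: the highest group mean was 1.196 times the lowest at the median of the 42 genes, and 4 genes reached 1.5 times.

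**Figure D1:**
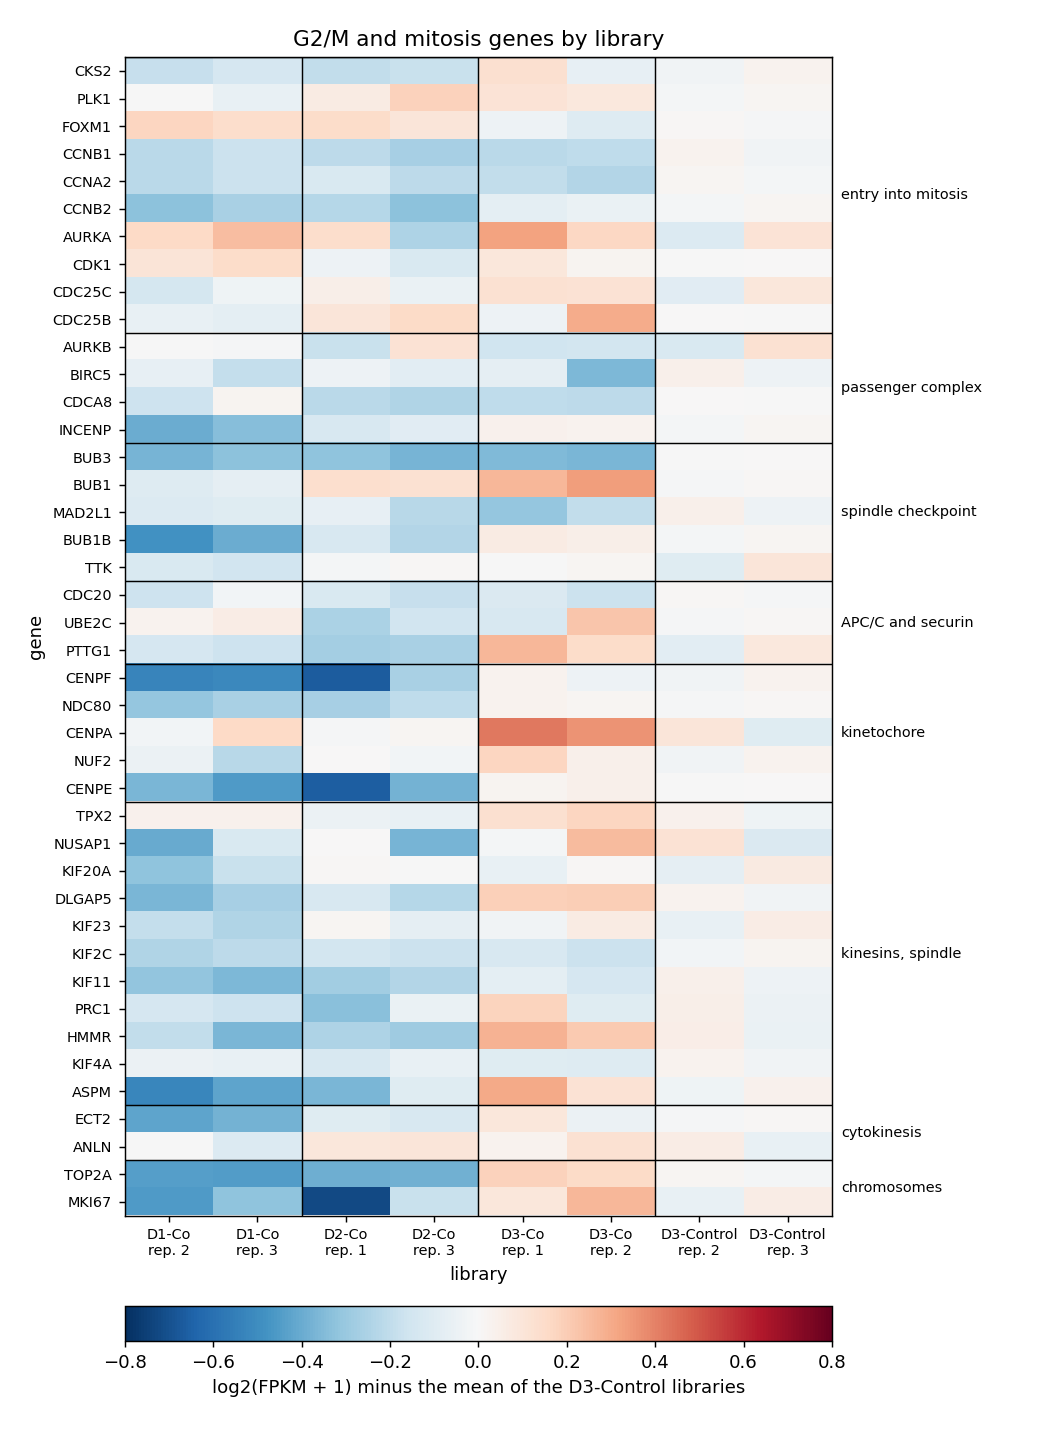
Level of each of the 42 genes (rows, by role) in each library (columns), as log2(FPKM + 1) minus the mean of the 2 D3-Control libraries; blue is lower and red is higher than D3-Control. Most rows are blue in D1-Co, and TOP2A, BUB1, HMMR and CENPA are red in both D3-Co libraries.

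Within co-culture, members with several roles were higher at day 3 than at day 1. In D3-Co against D1-Co, 17 of 42 members rose and 1 fell by limma (adjusted p under 0.05), where 16.1% of all 12449 tested genes were called higher and 10.5% lower. The median difference of the members was 0.20 on the log2(FPKM + 1) scale, against 0.03 over all tested genes, and all differences of single genes given here are on that scale. By role, 4 of 5 kinetochore genes, 5 of 11 kinesins and spindle proteins, 2 of 5 checkpoint genes and both chromosome genes (TOP2A and MKI67) rose, and of the 10 genes of mitotic entry only CCNB2 rose while FOXM1 fell. Both D3-Co libraries lay above both D1-Co libraries for 29 members, where 37.5% of all tested genes did so. Against the day before, D3-Co had 14 members higher and 1 lower than D2-Co (8.72% and 7.22% of all tested genes). D2-Co had 4 members higher and 0 lower than D1-Co (4.26% and 2.88% of all tested genes).

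TOP2A, topoisomerase II alpha, which untangles sister chromatids, had 40.6 and 40.4 FPKM in D1-Co, 42.1 and 42.2 in D2-Co, 63.1 and 61.8 in D3-Co, and 56.1 and 54.8 FPKM in D3-Control. The 2 earlier co-culture days were alike, both D3-Co libraries were the highest of all 8, and D3-Control lay between, without overlap. TOP2A was 1.54-fold higher in D3-Co than in D1-Co, a log2 difference of 0.61 (SE 0.04, adjusted p = 0.000779), and 0.56 (SE 0.04, adjusted p = 0.00213) against D2-Co. MKI67, the Ki-67 protein that coats mitotic chromosomes, had 19.9 and 21.9 FPKM in D1-Co, 16.4 and 24.3 in D2-Co, 29.4 and 33.4 in D3-Co, and 26.5 and 28.8 FPKM in D3-Control. Its D2-Co libraries lay far apart, and it rose by 0.56 (SE 0.16, adjusted p = 0.043) in D3-Co against D1-Co.

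At the kinetochore, CENPF, a large outer kinetochore protein, had 17.1 and 17.4 FPKM in D1-Co, 15.6 and 20.9 in D2-Co, 25.7 and 24.5 in D3-Co, and 24.7 and 25.8 FPKM in D3-Control. CENPE, the kinesin that carries chromosomes to the spindle equator, had 5.91 and 5.495 FPKM in D1-Co, 4.61 and 5.84 in D2-Co, 7.999 and 8.13 in D3-Co, and 7.87 and 7.896 FPKM in D3-Control. For both genes every D1-Co and D2-Co library was below every D3-Co and D3-Control library. The differences in D3-Co against D1-Co were 0.52 (SE 0.12, adjusted p = 0.02) for CENPF and 0.44 (SE 0.10, adjusted p = 0.0186) for CENPE. NDC80, the microtubule-binding subunit that gives its complex its name, had 12.2 and 12.7 FPKM in D1-Co, 12.6 and 13.2 in D2-Co, 15.7 and 15.5 in D3-Co, and 15.3 and 15.4 FPKM in D3-Control, and it showed the same order of groups on a row that needed no move. It rose by 0.30 (SE 0.06, adjusted p = 0.00845) in D3-Co against D1-Co. CENPA, the histone H3 variant that marks the centromere, had 8.80 and 10.1 FPKM in D1-Co, 8.92 and 9.08 in D2-Co, 12.3 and 11.8 in D3-Co, and 9.67 and 8.299 FPKM in D3-Control. Only the D3-Co libraries of CENPA stood apart from the others, at 0.32 (SE 0.09, adjusted p = 0.0393) against D1-Co, and its exons overlap another gene. NUF2, the partner of NDC80, was not called in any comparison (0.24 in D3-Co against D1-Co).

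Among the spindle proteins, ASPM, which works at spindle poles, had 6.94 and 7.51 FPKM in D1-Co, 7.86 and 9.66 in D2-Co, 13.1 and 11.4 in D3-Co, and 10.1 and 10.7 FPKM in D3-Control. It showed the largest difference of the 42 genes between D3-Co and D1-Co, 0.69 (SE 0.11, adjusted p = 0.00546). DLGAP5, which stabilises microtubules near chromosomes, had 25.6 and 27.6 FPKM in D1-Co, 30.3 and 28.2 in D2-Co, 38.03 and 38.3 in D3-Co, and 33.9 and 32.6 FPKM in D3-Control. HMMR, a spindle assembly factor also known as a hyaluronan receptor, had 16.5 and 14.6 FPKM in D1-Co, 15.9 and 15.5 in D2-Co, 23.4 and 22.2 in D3-Co, and 19.8 and 18.4 FPKM in D3-Control. Both genes were highest in D3-Co, with no overlap with any other group, and differed from D1-Co by 0.51 (SE 0.06, adjusted p = 0.00211) for DLGAP5 and 0.53 (SE 0.07, adjusted p = 0.00358) for HMMR. KIF11, the kinesin that pushes spindle poles apart, had 18.04 and 17.4 FPKM in D1-Co, 18.5 and 19.1 in D2-Co, 21.4 and 20.6 in D3-Co, and 23.4 and 22.02 FPKM in D3-Control. It was highest in D3-Control and rose by 0.23 (SE 0.06, adjusted p = 0.0238) in D3-Co against D1-Co. KIF23, a kinesin of the central spindle, had 22.8 and 22.02 FPKM in D1-Co, 26.4 and 24.8 in D2-Co, 25.6 and 27.4 in D3-Co, and 25.1 and 27.3 FPKM in D3-Control. Its difference was 0.23 (SE 0.07, adjusted p = 0.0374) in D3-Co against D1-Co, on a row that was not settled. TPX2, which activates AURKA on the spindle, had 69.3 and 69.4 FPKM in D1-Co, 65.5 and 64.8 in D2-Co, 73.8 and 76.4 in D3-Co, and 69.3 and 65.95 FPKM in D3-Control, and was called only in D3-Co against D2-Co, at 0.20 (SE 0.05, adjusted p = 0.0305).

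**Figure D2:**
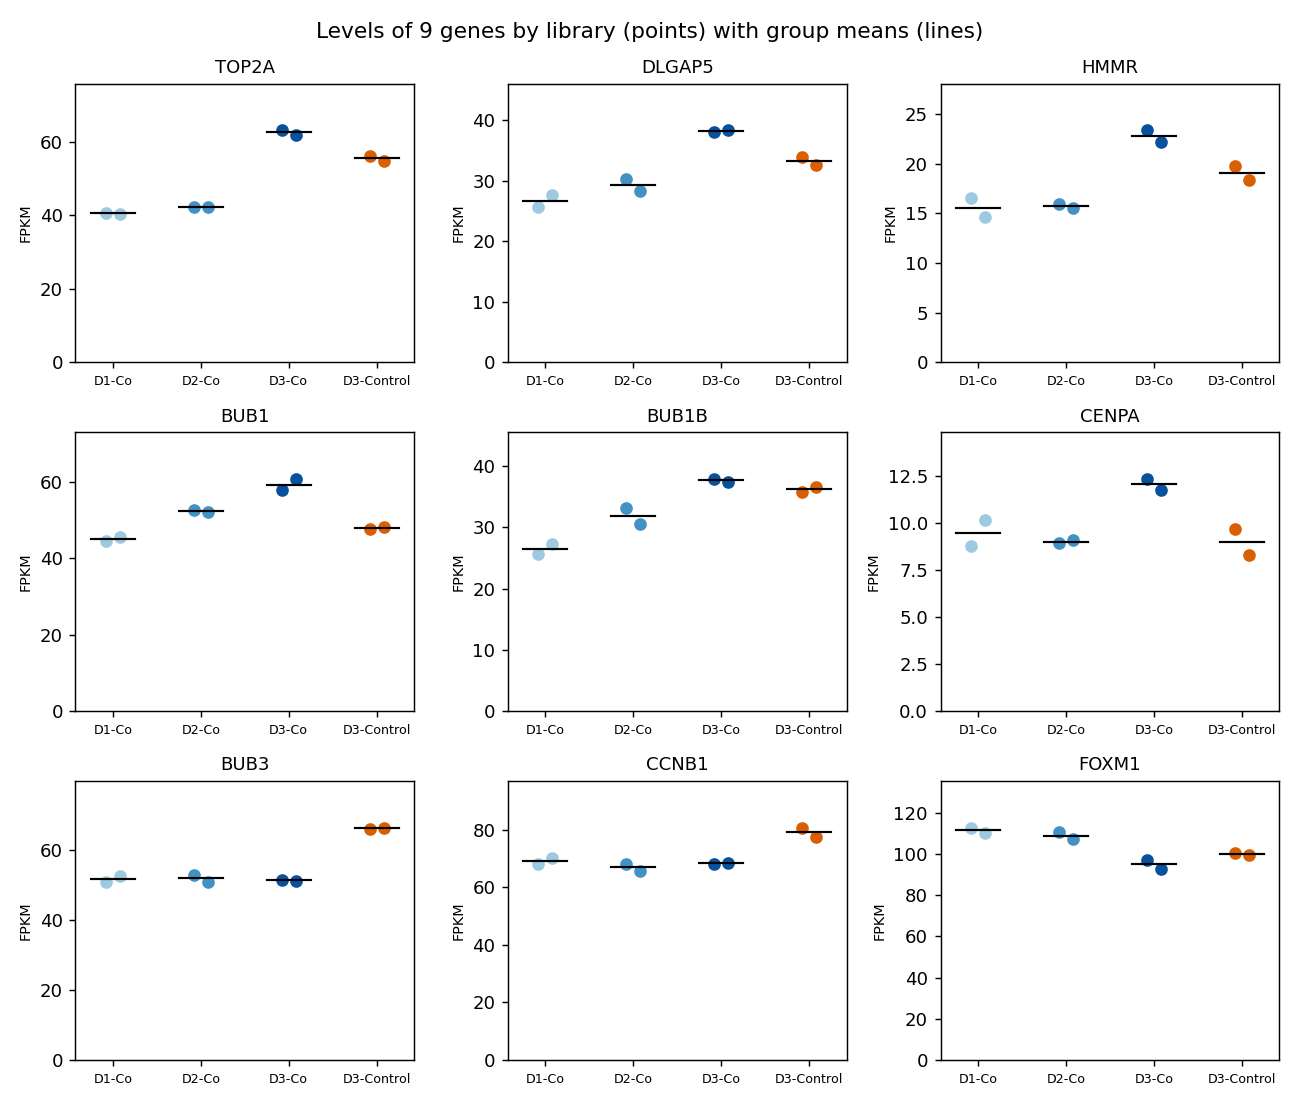
FPKM of 9 members in each library (points) with the group mean (line), each axis from 0. TOP2A, DLGAP5, HMMR and CENPA are highest in D3-Co, BUB1 and BUB1B are lowest in D1-Co, BUB3 and CCNB1 are highest in D3-Control, and FOXM1 is lowest in D3-Co.

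The spindle checkpoint genes did not move as 1 group. BUB1, the checkpoint kinase at kinetochores, had 44.5 and 45.5 FPKM in D1-Co, 52.7 and 52.2 in D2-Co, 57.7 and 60.7 in D3-Co, and 47.7 and 48.2 FPKM in D3-Control. Each later co-culture day was above the day before, with 0.22 (SE 0.05, adjusted p = 0.0411) in D2-Co against D1-Co, 0.17 (SE 0.05, adjusted p = 0.0464) in D3-Co against D2-Co and 0.39 (SE 0.05, adjusted p = 0.0022) in D3-Co against D1-Co. BUB1B, the BubR1 protein of the inhibitor that holds CDC20, had 25.6 and 27.2 FPKM in D1-Co, 33.1 and 30.6 in D2-Co, 37.9 and 37.5 in D3-Co, and 35.8 and 36.7 FPKM in D3-Control. It also climbed with the day, by 0.26 (SE 0.06, adjusted p = 0.0431) in D2-Co and 0.50 (SE 0.06, adjusted p = 0.00205) in D3-Co, each against D1-Co. BUB3, which brings BUB1 and BUB1B to kinetochores, differed by -0.01 in D3-Co against D1-Co, with a 95% interval of -0.11 to 0.10. TTK, the kinase that starts checkpoint signalling, and MAD2L1, the Mad2 protein, were not called between co-culture days (0.14 and -0.15 in D3-Co against D1-Co).

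INCENP, the scaffold of the chromosomal passenger complex, had 14.1 and 14.7 FPKM in D1-Co, 17.2 and 17.6 in D2-Co, 19.3 and 19.2 in D3-Co, and 18.6 and 19.03 FPKM in D3-Control. It rose by 0.26 (SE 0.05, adjusted p = 0.0341) in D2-Co and 0.40 (SE 0.05, adjusted p = 0.00291) in D3-Co, each against D1-Co. The other 3 subunits measured, AURKB, BIRC5 (survivin) and CDCA8 (borealin), had negative differences in D3-Co against D1-Co (-0.15, -0.09 and -0.14) and were not called. ECT2, which activates RhoA at the cell equator for cytokinesis, had 23.7 and 24.5 FPKM in D1-Co, 29.98 and 29.3 in D2-Co, 34.2 and 31.1 in D3-Co, and 31.9 and 32.3 FPKM in D3-Control. Its D1-Co libraries were below all the others, and it rose by 0.29 (SE 0.06, adjusted p = 0.0361) in D2-Co and 0.42 (SE 0.06, adjusted p = 0.00362) in D3-Co, each against D1-Co. ANLN, the ring scaffold anillin, was not called (0.13 in D3-Co against D1-Co). PTTG1, securin, the separase inhibitor destroyed at anaphase, had 104 and 102 FPKM in D1-Co, 94.6 and 95.5 in D2-Co, 138 and 127 in D3-Co, and 108 and 121 FPKM in D3-Control. It was lowest in D2-Co and rose by 0.47 (SE 0.07, adjusted p = 0.00859) in D3-Co against D2-Co and by 0.35 (SE 0.07, adjusted p = 0.0106) against D1-Co.

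Of the genes of mitotic entry, CCNB2, cyclin B2, had 47.1 and 49.7 FPKM in D1-Co, 50.7 and 47.2 in D2-Co, 56.3 and 57.4 in D3-Co, and 58.95 and 60.2 FPKM in D3-Control, and rose by 0.23 (SE 0.05, adjusted p = 0.0213) in D3-Co against D1-Co. FOXM1, the transcription factor of G2/M genes, ran the other way with 113 and 110.4 FPKM in D1-Co, 111 and 107 in D2-Co, 97.2 and 93.1 in D3-Co, and 101 and 99.5 FPKM in D3-Control. It fell by 0.23 on the log2 scale in D3-Co against D1-Co (SE 0.05, adjusted p = 0.0117), and D3-Control lay between the early co-culture days and D3-Co. Values of FOXM1 were moved in 6 libraries and those of CCNB2 in 3, and the calls of both were lost in the order as deposited.

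These day comparisons lean on few libraries. Of the 18 calls in D3-Co against D1-Co, 9 (ASPM, BUB1, BUB1B, DLGAP5, ECT2, HMMR, INCENP, NDC80 and TOP2A) held without each library in turn, and the count of members higher fell to 10 without D1-Co replicate 2, 11 without D1-Co replicate 3, 10 without D3-Co replicate 1 and 11 without D3-Co replicate 2, while FOXM1 was lost without D1-Co replicate 2 and without D3-Co replicate 2. Of the 15 calls in D3-Co against D2-Co, only PTTG1 and TOP2A held throughout, with 14 members higher becoming 4 without D2-Co replicate 1, 7 without D2-Co replicate 3, 3 without D3-Co replicate 1, 4 without D3-Co replicate 2 and 8 without either D3-Control library, and 8 under median-of-ratios scaling. Of the 4 calls in D2-Co against D1-Co none held, with 0 left without either D1-Co, D2-Co or D3-Control library, 2 without D3-Co replicate 1 and 1 without D3-Co replicate 2.

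Against separate culture, the early co-culture days were lower. In D1-Co against D3-Control, 17 of 42 members fell and 1 rose (FOXM1), where 12.2% of all tested genes were called lower and 10.5% higher. In D2-Co against D3-Control, 11 members fell and 0 rose (12.6% and 12.4% of all tested genes). The median difference of the members was -0.15 in D1-Co and -0.16 in D2-Co, against -0.03 and -0.04 over all tested genes. Both D1-Co libraries lay below both D3-Control libraries for 31 members, where 37.5% of all tested genes did so. The day differs along with the culture in these comparisons, and their parts cannot be told apart. The comparisons with D3-Control share its 2 libraries, and 12 members were both lower in D1-Co than in D3-Control and higher in D3-Co than in D1-Co, which share the D1-Co libraries.

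**Figure D3:**
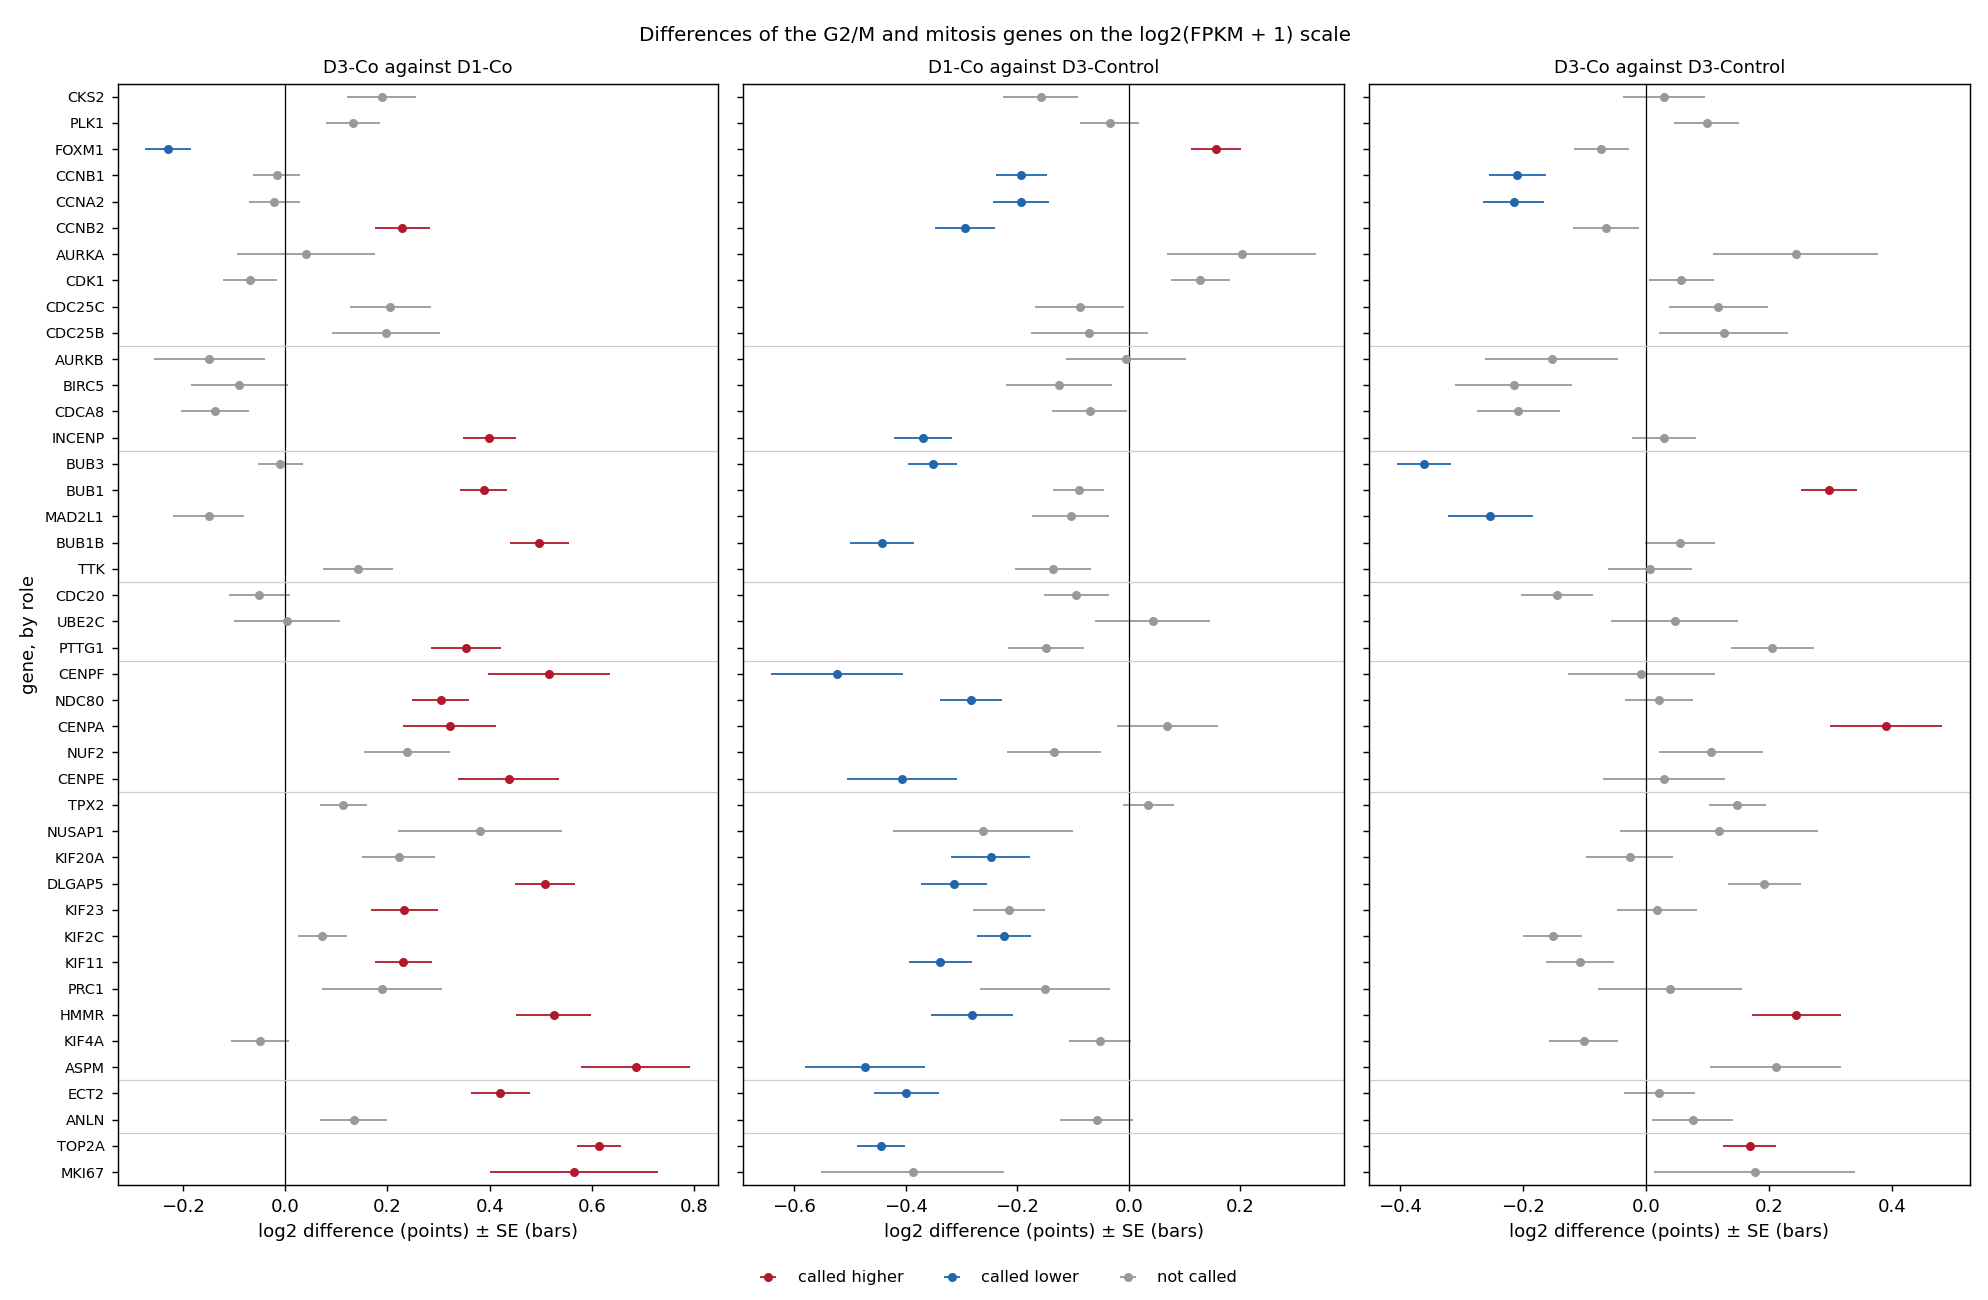
Log2 difference (points) with its SE (bars) of each of the 42 genes, by role, in D3-Co against D1-Co (left), D1-Co against D3-Control (middle) and D3-Co against D3-Control (right); red was called higher and blue lower by limma. 17 genes are red on the left, 17 are blue in the middle, and 4 are red and 4 blue on the right.

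The members lowest against D3-Control in D1-Co were CENPF at -0.52 (SE 0.12, adjusted p = 0.0208), ASPM at -0.47 (SE 0.11, adjusted p = 0.0204) and TOP2A at -0.45 (SE 0.04, adjusted p = 0.000624). BUB1B (-0.44), CENPE (-0.41), ECT2 (-0.40), INCENP (-0.37), KIF11 (-0.34), DLGAP5 (-0.31), CCNB2 (-0.29), NDC80 (-0.28) and HMMR (-0.28) fell as well. These 12 genes also rose in D3-Co against D1-Co. In D2-Co against D3-Control, CENPE (-0.52), CENPF (-0.46) and TOP2A (-0.39) were lowest, and CCNB2 (-0.28), HMMR (-0.27), PTTG1 (-0.27), KIF11 (-0.26) and NDC80 (-0.23) fell as well. KIF20A, a kinesin of the central spindle needed for cytokinesis, had 30.5 and 33.8 FPKM in D1-Co, 38.6 and 38.3 in D2-Co, 36.8 and 38.5 in D3-Co, and 36.4 and 40.4 FPKM in D3-Control. Its D1-Co libraries were the lowest, at -0.25 (SE 0.07, adjusted p = 0.0452) against D3-Control. KIF2C, the microtubule-depolymerising kinesin MCAK, had 23.1 and 23.6 FPKM in D1-Co, 24.7 and 24.3 in D2-Co, 24.99 and 24.3 in D3-Co, and 27.1 and 27.9 FPKM in D3-Control. It was highest in D3-Control, at -0.22 (SE 0.05, adjusted p = 0.017) in D1-Co. CDCA8 had 23.9 and 27.4 FPKM in D1-Co, 23.02 and 22.6 in D2-Co, 23.2 and 23.1 in D3-Co, and 26.96 and 26.8 FPKM in D3-Control. It was called only in D2-Co against D3-Control, at -0.23 (SE 0.07, adjusted p = 0.0458).

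BUB3 and CCNB1 were lower than in D3-Control at every co-culture day, and CCNA2 in D1-Co and D3-Co. BUB3 had 50.9 and 52.5 FPKM in D1-Co, 52.8 and 50.99 in D2-Co, 51.6 and 51.1 in D3-Co, and 66.05 and 66.4 FPKM in D3-Control. The 6 co-culture libraries lay together and below both D3-Control libraries, and BUB3 fell by 0.35 in D1-Co (adjusted p = 0.00195), by 0.35 in D2-Co (adjusted p = 0.00211) and by 0.36 in D3-Co (adjusted p = 0.0023), each against D3-Control. These values were moved in 4 libraries, and in the order as deposited the difference was not called in D3-Co and had the opposite sign in D1-Co and D2-Co. CCNB1, cyclin B1, the main partner of CDK1, had 68.04 and 70.3 FPKM in D1-Co, 68.3 and 65.7 in D2-Co, 68.2 and 68.6 in D3-Co, and 80.8 and 77.7 FPKM in D3-Control. The co-culture libraries again lay together below D3-Control, with -0.19 (SE 0.05, adjusted p = 0.0249) in D1-Co, -0.24 (SE 0.05, adjusted p = 0.0113) in D2-Co and -0.21 (SE 0.05, adjusted p = 0.0182) in D3-Co. CCNA2, cyclin A2, had 54.6 and 56.5 FPKM in D1-Co, 58.5 and 54.9 in D2-Co, 55.4 and 53.98 in D3-Co, and 64.3 and 63.04 FPKM in D3-Control. It fell by 0.19 in D1-Co (adjusted p = 0.0322) and by 0.22 in D3-Co (adjusted p = 0.0213), on a row that was not settled: in D1-Co replicate 3, for example, it took 56.5 FPKM in 7 of 10 changed searches and 32.2 in 3.

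FOXM1 was the member that was higher in D1-Co than in D3-Control, at 0.16 (SE 0.05, adjusted p = 0.0459), and this call was lost without any 1 of the 8 libraries. Of the 18 calls in D1-Co against D3-Control, 6 (BUB1B, BUB3, ECT2, INCENP, KIF11 and TOP2A) held without each library in turn, with 17 members lower becoming 7 without D1-Co replicate 2, 11 without D1-Co replicate 3, 9 without D3-Control replicate 2 and 7 without D3-Control replicate 3. Of the 11 in D2-Co against D3-Control, BUB3 and TOP2A held throughout, and the count was 5 without either D2-Co library and 4 without either D3-Control library.

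At day 3, few of these genes were called between co-culture and separate culture. In D3-Co against D3-Control, 4 members rose and 4 fell, where 13.5% of all tested genes were called higher and 10.8% lower, so that the members' shares were near those of all genes or below. The median difference was 0.03, against 0.00 over all tested genes. The genes that rose were CENPA at 0.39 (SE 0.09, adjusted p = 0.0216), BUB1 at 0.30 (SE 0.05, adjusted p = 0.0048), HMMR at 0.25 (SE 0.07, adjusted p = 0.0483) and TOP2A at 0.17 (SE 0.04, adjusted p = 0.0283). For each of them both D3-Co libraries lay above both D3-Control libraries, which nearly follows from a call on these same libraries. The genes that fell were BUB3, CCNB1 and CCNA2, given above, and MAD2L1, at -0.25 (SE 0.07, adjusted p = 0.0367). MAD2L1 had 45.0 and 45.4 FPKM in D1-Co, 46.4 and 41.5 in D2-Co, 39.1 and 42.3 in D3-Co, and 50.1 and 47.2 FPKM in D3-Control, with the D3-Co libraries below both D3-Control libraries. BUB1 and BUB3, which bind each other at kinetochores, differed from D3-Control in opposite directions, with 1.24 times its level for BUB1 and 0.775 times for BUB3. BUB1 and BUB3 held without each library in turn, while without D3-Co replicate 1, D3-Co replicate 2, D3-Control replicate 2 and D3-Control replicate 3 the counts were 2, 1, 2 and 2 members higher and 2, 1, 1 and 1 lower.

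The members of the highest level were not called in any comparison, PTTG1 apart. CDC20, the activator of the anaphase promoting complex, had 165 and 182 FPKM in D1-Co, 170.4 and 163 in D2-Co, 171 and 164 in D3-Co, and 186 and 184 FPKM in D3-Control. UBE2C, the ubiquitin-conjugating enzyme of that complex, had 147 and 150.2 FPKM in D1-Co, 121 and 129.9 in D2-Co, 132 and 168 in D3-Co, and 143 and 145 FPKM in D3-Control. In UBE2C the 2 D3-Co libraries lay farther apart than any group means, and in CDC20 both D3-Control libraries were the highest. CKS2, a CDK-binding subunit, had 113 and 117 FPKM in D1-Co, 112 and 114 in D2-Co, 140.2 and 123 in D3-Co, and 126 and 131 FPKM in D3-Control. PLK1, polo-like kinase, had 113 and 109 FPKM in D1-Co, 119 and 129 in D2-Co, 123 and 121 in D3-Co, and 112 and 115 FPKM in D3-Control. Neither CDK1 nor AURKA, the kinases that drive entry, was called: in D3-Co against D3-Control the 95% interval of the log2 difference was -0.07 to 0.18 for CDK1 and -0.07 to 0.56 for AURKA. The CDK1 row was not settled, which its interval does not include. In D3-Co replicate 1 it took 32.9 FPKM in 7 of 10 changed searches and 25.5 in 3. In all 16 members were called in no comparison, and their highest group mean was 1.08 (KIF4A) to 1.31 (NUSAP1) times the lowest.

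The other genes of mitosis are given beside the 42, and no difference between the lists was tested. Of 99 tested genes of the anaphase promoting complex, condensin and cohesin, the centromere, the spindle and mitotic entry outside the 42, 14 rose (14.1%) and 8 fell (8.08%) in D3-Co against D1-Co, with a median of 0.09, and both shares were below the 16.1% and 10.5% of all tested genes. The 32 centromere and kinetochore genes among them had 5 higher (15.6%) and 3 lower (9.38%) there, with a median of 0.02, against the 4 of 5 kinetochore members that rose. Of those 4, only NDC80 held without each library in turn. In D1-Co against D3-Control, 3 of the 99 rose (3.03%) and 18 fell (18.2%), with a median of -0.11, against 10.5% higher and 12.2% lower over all tested genes. In D3-Co against D3-Control, 6 rose (6.06%) and 16 fell (16.2%), with a median of -0.05, against 13.5% and 10.8%. Within D3-Co against D3-Control, WEE1, the kinase that restrains CDK1, was higher at 72.8 ± 3.17 in D3-Co against 46.2 ± 4.14 FPKM in D3-Control (SD, n = 2 each, log2 difference 0.65, adjusted p = 0.00188). CEP55, which acts at abscission, was higher at 20.3 ± 1.56 in D3-Co against 15.03 ± 1.29 FPKM in D3-Control (log2 difference 0.41, adjusted p = 0.0135). ZWINT, a kinetochore protein, was lower at 38.3 ± 0.796 in D3-Co against 55.4 ± 1.85 FPKM in D3-Control (log2 difference -0.52, adjusted p = 0.00161). STAG1, a cohesin subunit, was lower at 7.57 ± 0.3698 in D3-Co against 10.7 ± 0.898 FPKM in D3-Control (log2 difference -0.45, adjusted p = 0.00628), as was ANAPC13, a subunit of the anaphase promoting complex, at 16.7 ± 0.716 in D3-Co against 22.2 ± 0.0881 FPKM in D3-Control (log2 difference -0.39, adjusted p = 0.00916). The exons of WEE1, STAG1 and ANAPC13 overlap another gene, as do those of MCM2, CCNE2, CDKN2A, CHEK2 and NFYC named next.

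Of 38 G1/S and DNA replication genes, 11 fell in D1-Co (28.9%), 17 in D2-Co (44.7%) and 22 in D3-Co (57.9%), each against D3-Control, where 12.2%, 12.6% and 10.8% of all tested genes were called lower. None rose, and 5 in D1-Co, 8 in D2-Co and 2 in D3-Co had a positive difference that was not called. Their summed level was 1564 and 1589 FPKM in D1-Co, 1569 and 1517 in D2-Co, 1456 and 1474 in D3-Co, and 1745 and 1744 FPKM in D3-Control, with no overlap between co-culture and control. MCM2, of the replicative helicase, stood at 48.4 ± 1.18 in D3-Co against 71.3 ± 5.402 FPKM in D3-Control (log2 difference -0.55, adjusted p = 0.00229). CCNE2, cyclin E2, stood at 0.545 ± 0.234 in D3-Co against 1.65 ± 0.175 FPKM in D3-Control (log2 difference -0.79, adjusted p = 0.00568). In D3-Co against D1-Co, 0 of the 38 rose and 6 fell (15.8%, against 10.5% of all tested genes).

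Of 11 tested CDK inhibitors and genes of the G2 checkpoint, 4 rose in D1-Co (36.4%), 5 in D2-Co (45.5%) and 7 in D3-Co (63.6%), each against D3-Control, where 10.5%, 12.4% and 13.5% of all tested genes were called higher. The gene that fell, in D1-Co and D2-Co, was CHEK2, a DNA damage checkpoint kinase, named after its values were seen. It stood at 9.87 ± 1.51 FPKM in D1-Co (log2 difference -0.70, adjusted p = 0.00357), 10.1 ± 0.491 FPKM in D2-Co (log2 difference -0.66, adjusted p = 0.00471) and 16.8 ± 0.562 FPKM in D3-Co, against 16.6 ± 1.26 FPKM in D3-Control, and D3-Co overlapped D3-Control. SFN, the 14-3-3 sigma protein that keeps CDK1 with cyclin B out of the nucleus after damage, stood at 32.8 ± 0.8397 in D3-Co against 12.6 ± 0.925 FPKM in D3-Control (log2 difference 1.32, adjusted p = 0.000266). GADD45A, a stress-induced inhibitor of the CDK1 complex, stood at 21.8 ± 0.396 in D3-Co against 9.72 ± 0.493 FPKM in D3-Control (log2 difference 1.09, adjusted p = 0.000168). CDKN2A, which encodes the p16 inhibitor, was low, at 3.63 ± 0.183 in D3-Co and 1.35 ± 0.712 FPKM in D3-Control (log2 difference 1.01, adjusted p = 0.0178). Of the 12 regulators of G2/M promoters (MuvB, NF-Y, B-MYB and their partners), 0 rose and 3 fell in D3-Co against D3-Control (25% lower, against 10.8% of all tested genes), among them NFYC, an NF-Y subunit, at 19.7 ± 0.299 in D3-Co against 26.3 ± 0.806 FPKM in D3-Control (log2 difference -0.40, adjusted p = 0.00312). TFDP1, an E2F partner, fell by 0.40 (adjusted p = 0.00297) in D3-Co against D1-Co and E2F4 by 0.27 (adjusted p = 0.00571).

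**Figure D4:**
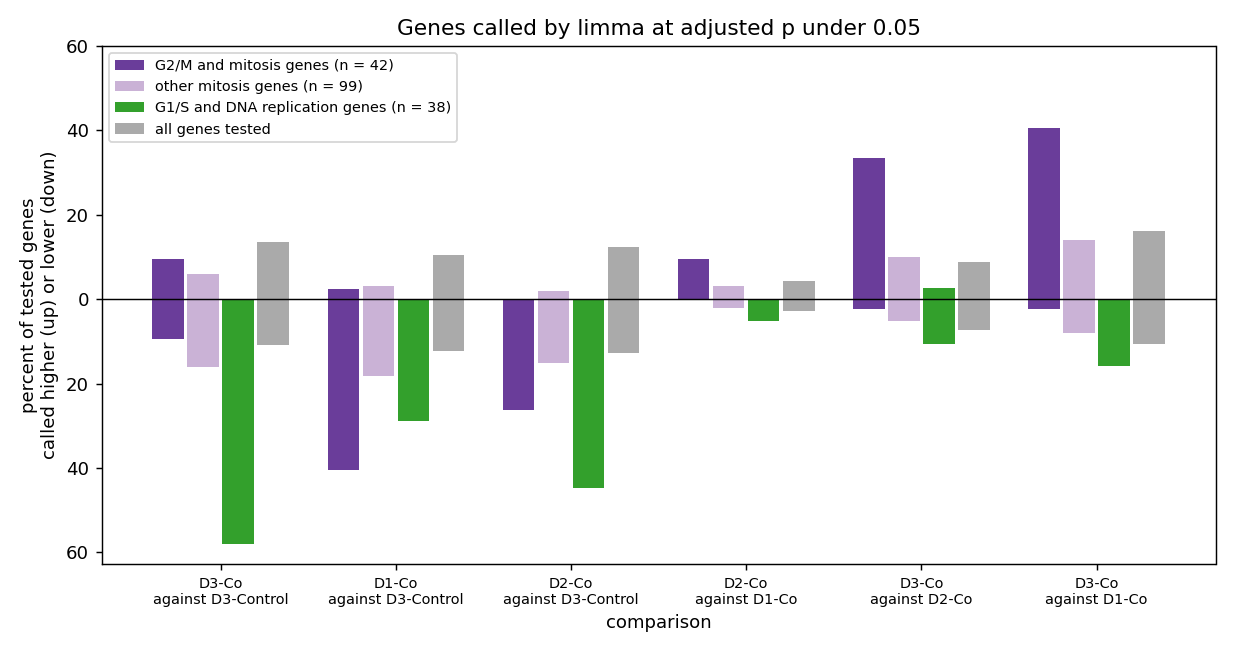
Percent of tested genes called higher (up) or lower (down) by limma in the 6 comparisons, for the 42 G2/M and mitosis genes, 99 other mitosis genes, 38 G1/S and replication genes and all tested genes. The 42 genes have their tallest bars downwards in D1-Co against D3-Control and upwards in D3-Co against D1-Co, while the G1/S bars point down in all comparisons with D3-Control.

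Members with and without the promoter letters are given side by side, and their difference was not tested. Those without may hold a form of the element that was not searched. In D3-Co against D1-Co, 15 of the 26 members with TTTGAA or TTCGAA rose (median 0.27) and 2 of the 9 without (median 0.20). Of all tested genes 16.1% were called higher there, with a median of 0.03. The share called among other genes with these letters was not counted. Of the 15 that also hold at least 2 CCAAT, 11 rose (median 0.40), among them HMMR, DLGAP5, INCENP, ECT2 and CCNB2, printed above.

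The day difference moved with transcript length. In D3-Co against D1-Co, the median log2 difference of all tested genes was -0.03 in the shortest quartile of transcripts and 0.11 in the longest, and that of the members was 0.10 for the 8 in the shortest and 0.52 for the 7 in the longest quartile. Across the 42 genes, which share their libraries, Pearson's r of the difference was 0.39 with log2 length and -0.40 with GC percent. Over all tested genes it was 0.12 and -0.04. In a fit with length and GC trends removed, added after the data were seen, 13 members rose and 3 fell in D3-Co against D1-Co, 1 rose and 14 fell in D1-Co against D3-Control, and 8 rose and 0 fell in D3-Co against D2-Co. In the main fit, the shares of all tested genes called higher and lower were 16.1% and 10.5%, 10.5% and 12.2%, and 8.72% and 7.22% in these comparisons. The counts of all tested genes differed from the main fit by at most 1.5 times there. Of the members called higher in D3-Co against D1-Co in the main fit, CENPE, CENPF, KIF11, KIF23 and MKI67 were not called with these trends removed.

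**Figure D5:**
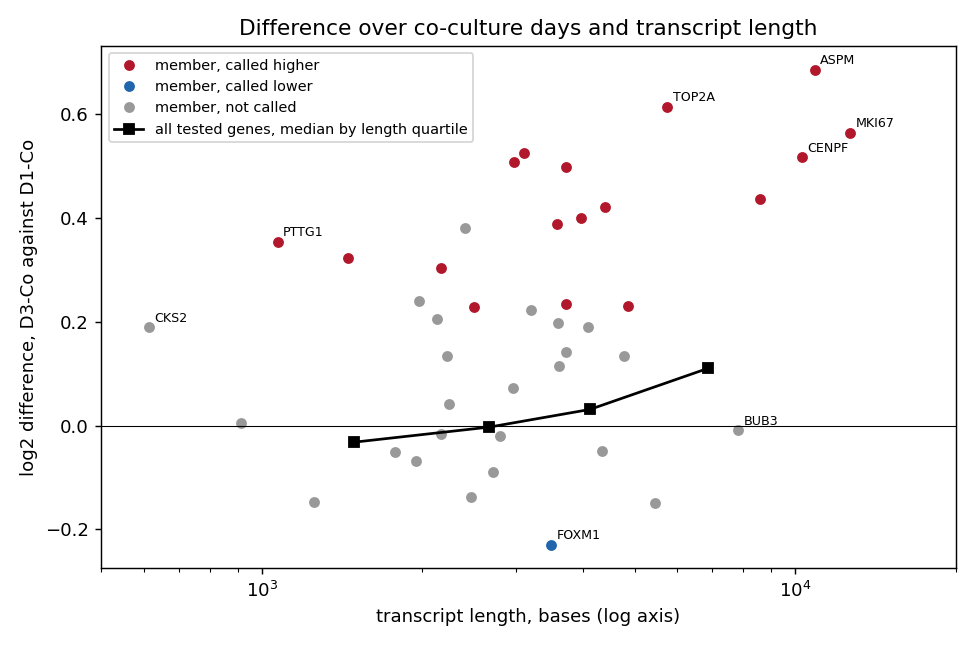
Log2 difference in D3-Co against D1-Co of each member (points) against transcript length in bases on a log axis, with the median of all tested genes in each length quartile (squares). The longest members, MKI67, ASPM and CENPF, are among those with the largest differences, and most members lie above the median of genes of like length.

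Fibroblast markers also moved with the groups. Of 24 listed, 15 or 16 reached 1 FPKM in every library. Their summed level was 1900 and 1730 FPKM in D1-Co, 1940 and 2062 in D2-Co, 1604 and 1640 in D3-Co, and 1181 and 1054 FPKM in D3-Control. VIM alone, which embryonic stem cells also express, gave 857 to 1288 FPKM of it in co-culture and 419.8 and 542 FPKM in D3-Control. In D3-Co against D1-Co, 6 of the 16 tested rose and 1 fell (16.1% and 10.5% of all tested genes). In D3-Co against D2-Co, 4 rose and 5 fell (8.72% and 7.22%). In D3-Co against D3-Control, 10 of the 16 rose and 0 fell (13.5% and 10.8% of all tested genes): TWIST1, S100A4, COL1A2, VIM, ACTA2, COL5A1, COL1A1, FN1, COL6A2 and COL6A1. COL1A1 stood at 41.2 ± 1.81 in D3-Co against 28.2 ± 0.8497 FPKM in D3-Control, COL1A2 at 25.02 ± 0.131 in D3-Co against 12.6 ± 1.03 FPKM in D3-Control, and ACTA2 at 11.99 ± 0.577 in D3-Co against 6.31 ± 0.000676 FPKM in D3-Control. THY1, which embryonic stem cells also carry, lay between 266 and 288 FPKM in all 8 libraries. Other markers of the list were at or near 0 or low: DCN, LUM and FAP were at 0 in all 8 libraries, COL3A1 was at most 0.0492 FPKM, POSTN at most 0.992 FPKM and TWIST2 between 2.00 and 3.43 FPKM. The pluripotency markers had 6 of 10 lower and 0 higher in D3-Co against D3-Control (10.8% and 13.5% of all tested genes). Against D3-Control, 7 were lower and 1 higher in D1-Co (12.2% and 10.5% of all tested genes). In D2-Co, 6 were lower and 0 higher (12.6% and 12.4%). The part of these in the results for mitosis genes was not tested.

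Some members overlap or share sequence with other genes. On either strand, the exons of 16 members overlap another gene (ANLN, BUB1B, CCNA2, CDC25C, CENPA, FOXM1, HMMR, KIF20A, KIF23, KIF2C, KIF4A, MAD2L1, NUF2, NUSAP1, PLK1 and PRC1). Of these, ANLN, CCNA2, CDC25C, CENPA, FOXM1, HMMR, KIF20A, KIF23, KIF2C, NUF2 and PLK1 share no stretch of 50 transcript bases, on the same strand, with another annotated gene. How far their levels mix with those of a neighbour is not known. Of the stretches of 50 bases in the transcripts of NUSAP1, 66.1% also occur in another annotated gene. The share was 58.2% for PRC1, 14.4% for KIF4A, 8.77% for CDC20, 7.87% for BUB1B and 5.24% for AURKA. Reads of these could be split or shared. In every other member it was at most 2.59% (PTTG1).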

How the data were processed

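Messenger RNA of H9 cells was measured in 8 polyA libraries, 2 in each of 4 groups taken from the library titles. The authors deposited 1 table of FPKM values per gene (45961 gene numbers), made with tools that, per the submitters' processing notes, include HISAT2 2.1.0 and StringTie 1.3.3b, on build GRCh38.p12; settings are not given in the sources used here. Read counts and depth are not in the sources used here, so no count test was run and no intervals from counts are given.

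Values stood on wrong rows, in a pattern that a text sort of joined gene number and value gives. An exact search found, in 7 libraries, the order allowed by such a sort that lies nearest to D1-Co replicate 2 (absolute log2 difference capped at 4). It can swap 3394 gene numbers that are the start of a longer one, and all 7 results sorted back to all 45961 rows. Rows that changed by over 0.25 in 10 randomly changed searches (SD 0.5) were called unsettled (565 of the tested rows).

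A row was tested where its name matched its gene number in a RefSeq table (36028 rows did) and its mean was at least 1 FPKM (12449 of 13104 rows). limma 3.58.1 (R 4.3.3) was fitted to log2(FPKM + 1) over all 8 libraries and 4 groups (4 residual, 3.19 prior degrees of freedom, intensity trend), with Benjamini-Hochberg adjustment over all tested genes and calls under 0.05. A log2 difference on this scale understates the change of low genes. 6 comparisons were made. The scripts were tested on simulated data. Members and lists were chosen with earlier results of these data known, so no list is independent evidence. Members called in any comparison and the 5 of highest mean are given in full, and up to 3 called genes are named from each other list. 13 further rows carry a member's name under another gene number and were not used. Alternatives tried were scaling, pseudocount, filters, realignment, fit settings, libraries left out and a length and GC correction. Tables and plots were made with Python 3.11.15.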

Additional observations from a re-analysis of the deposited data

How the results depend on the processing

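In the settings other than the order as deposited, all 74 calls of a member kept their sign, while many missed the threshold, and 21 of the 74 held it in every one. The calls were chosen on the same 8 libraries that each setting reuses in whole or in part. A kept sign was therefore likely from the start and is not further evidence of direction. The labels do not say whether libraries of the same replicate number were paired. Same-numbered libraries did not deviate together (r -0.03 to 0.04 over 7 pairs). With 2 libraries in a group their deviations mirror each other, so these r cannot exclude a pairing. The fit with the replicate number as a block is given with the others. The cause of a changed count was not tested, except that fewer rows or libraries were tested where some were left out. Comparisons are written with a stroke, D3-Co/D1-Co standing for D3-Co against D1-Co, and each count is of calls by limma. Counts not listed under a setting changed by at most 1.5 times, and single calls among them could still be gained or lost.

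With rows in place in all libraries alone, the counts that moved by over 1.5 times were, for members, 2 higher and 0 lower in D3-Co/D3-Control, 0 higher and 8 lower in D1-Co/D3-Control, 5 lower in D2-Co/D3-Control, 5 higher and 0 lower in D3-Co/D2-Co, 8 higher and 0 lower in D3-Co/D1-Co, and for all tested genes, 1009 higher and 868 lower in D3-Co/D3-Control, 761 higher and 993 lower in D1-Co/D3-Control, 939 higher and 1047 lower in D2-Co/D3-Control, 318 higher and 232 lower in D2-Co/D1-Co, 686 higher and 533 lower in D3-Co/D2-Co, 1240 higher and 789 lower in D3-Co/D1-Co. With the libraries of the 2 groups alone, the counts that moved by over 1.5 times were, for members, 2 higher in D3-Co/D3-Control, 0 higher in D1-Co/D3-Control, 0 higher in D2-Co/D1-Co, 5 higher and 0 lower in D3-Co/D2-Co, and for all tested genes, 116 higher and 33 lower in D2-Co/D1-Co, 553 higher and 485 lower in D3-Co/D2-Co. With the replicate number as a block, the counts that moved by over 1.5 times were, for members, 2 higher and 2 lower in D3-Co/D3-Control, 0 higher in D1-Co/D3-Control, 7 lower in D2-Co/D3-Control, 0 higher in D2-Co/D1-Co, 5 higher and 0 lower in D3-Co/D2-Co, and for all tested genes, 1053 higher and 769 lower in D3-Co/D3-Control, 915 lower in D2-Co/D3-Control, 89 higher and 21 lower in D2-Co/D1-Co, 367 higher and 354 lower in D3-Co/D2-Co, 1194 higher and 748 lower in D3-Co/D1-Co. Without the intensity trend, the counts that moved by over 1.5 times were, for members, 2 higher in D3-Co/D3-Control, 0 higher in D1-Co/D3-Control, 0 higher in D2-Co/D1-Co, 8 higher and 0 lower in D3-Co/D2-Co, and for all tested genes, 167 lower in D2-Co/D1-Co. Under quantile normalization, the counts that moved by over 1.5 times were, for members, 2 lower in D3-Co/D3-Control, 0 higher in D1-Co/D3-Control, 3 higher in D2-Co/D3-Control, and for all tested genes, 206 lower in D2-Co/D1-Co. With a mean of at least 5 FPKM, the counts that moved by over 1.5 times were, for all tested genes, 1100 higher in D3-Co/D3-Control, 1228 higher in D3-Co/D1-Co. With no filter on low values, the counts that moved by over 1.5 times were, for members, 0 higher in D1-Co/D3-Control, 1 higher in D2-Co/D1-Co, 8 higher in D3-Co/D2-Co, and for all tested genes, 227 higher and 117 lower in D2-Co/D1-Co. In the order as deposited, without realignment, the counts that moved by over 1.5 times were, for members, 3 higher and 9 lower in D1-Co/D3-Control, 2 higher and 6 lower in D2-Co/D3-Control, 2 higher and 2 lower in D2-Co/D1-Co, 5 higher and 3 lower in D3-Co/D2-Co, 9 higher and 4 lower in D3-Co/D1-Co. Under median-of-ratios scaling, the counts that moved by over 1.5 times were, for members, 1 higher in D2-Co/D3-Control, 8 higher in D3-Co/D2-Co. With the length and GC correction, added after the data were seen, the counts that moved by over 1.5 times were, for members, 1 higher and 7 lower in D2-Co/D3-Control, 2 higher in D2-Co/D1-Co, 8 higher and 0 lower in D3-Co/D2-Co, 3 lower in D3-Co/D1-Co, and for all tested genes, 337 higher and 166 lower in D2-Co/D1-Co.

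With each library left out in turn, members called were 1 to 4 higher and 1 to 4 lower in D3-Co/D3-Control, 0 higher throughout and 7 to 16 lower in D1-Co/D3-Control, 0 higher throughout and 4 to 11 lower in D2-Co/D3-Control, 0 to 2 higher and 0 lower throughout in D2-Co/D1-Co, 3 to 10 higher and 0 to 1 lower in D3-Co/D2-Co, 10 to 16 higher and 0 to 1 lower in D3-Co/D1-Co. With each library left out in turn, tested genes called were 958 to 1560 higher and 608 to 1288 lower in D3-Co/D3-Control, 730 to 1232 higher and 626 to 1382 lower in D1-Co/D3-Control, 909 to 1473 higher and 553 to 1445 lower in D2-Co/D3-Control, 48 to 433 higher and 19 to 232 lower in D2-Co/D1-Co, 238 to 902 higher and 209 to 782 lower in D3-Co/D2-Co, 975 to 1832 higher and 702 to 1180 lower in D3-Co/D1-Co. In the order as deposited the log2 difference had the opposite sign for CCNA2 2.89, CCNB1 6.12, CENPA -0.37, HMMR -3.03, MAD2L1 1.10 in D3-Co/D3-Control, CCNA2 2.20, CCNB1 3.06, CENPE 1.10, BUB3 2.17 in D1-Co/D3-Control, CCNB1 6.09, CENPE 1.76, BUB3 0.013 in D2-Co/D3-Control, CENPA -0.61, CENPE -1.45, HMMR -2.76, PTTG1 -2.22, TPX2 -0.93, ASPM -2.14 in D3-Co/D2-Co, CENPA -0.46, CENPE -0.79, HMMR -2.75, PTTG1 -2.34, ASPM -1.90 in D3-Co/D1-Co; each of these genes has a value that was moved.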
